A study of Mus musculus with 18 samples.

Results

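The transcripts of the phagocyte NADPH oxidase were followed in bone marrow-derived macrophages (BMDMs) through 5 genes, Cybb, Cyba, Ncf1, Ncf4 and Rac2. The genes were chosen by name, as genes of the membrane subunits, the cytosolic subunits and the GTPase of the enzyme, and they are 5 of the 20615 genes in the deposited table. All 5 passed the filter on low counts, which 15789 genes did. Levels are given in CPM, counts brought to a common library total after scaling by TMM, a method that corrects for differences in the make-up of libraries, and n is 3 in each group.

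The study asked how macrophages of a mouse prone to Sjögren's syndrome answer to apoptotic cells (ACs). That mouse is C57BL/6.NOD-Aec1Aec2, called SjSS here, which carries the Aec1 and Aec2 intervals of the non-obese diabetic mouse on the C57BL/6 (B6) background, and B6 mice were the controls. The 18 samples made up 6 groups, B6 control, B6 AC, B6 CpG, SjSS control, SjSS AC and SjSS CpG. All mice were female by the study's methods, marrow was taken at 7 to 12 weeks of age, and the cells of all groups were matured in L929 cell supernatant, a source of M-CSF. Control BMDMs were untreated. CpG, an oligonucleotide that the study uses as a TLR9 agonist, was given at 1 µM for 6 h. ACs were thymocytes killed with dexamethasone, given at 5 per BMDM for 2 h and washed off, and RNA was taken after a further 3 h by the labels, while the methods give a longer wait. The thymocytes came from mice of both strains, and which BMDMs received which was not stated for the sequenced samples. Where each strain received its own thymocytes, a difference between strains with ACs cannot be told apart from a difference between the thymocytes. A figure legend of the study names the mice of each strain once for all treatments, so samples of different treatments may share mice. This was not stated outright, nor was it stated whether equal replicate numbers mark a shared mouse. The main fit took the 18 samples as independent, so p-values measure the spread between these samples.

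Total counts ran from 30688336 to 57139662 per sample. The 7 macrophage markers were found in every group, with summed levels from 14835 to 22812 CPM. The 16 thymocyte and T cell markers summed to 5.402 to 19.7 CPM over all samples, the 7 neutrophil markers in the table to 125 to 280.3 CPM, and most of the first sum was Cd4. In bulk RNA, more transcript per cell and more cells with the transcript cannot be told apart.

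The phagocyte oxidase makes superoxide by moving electrons from NADPH across the membrane of a phagosome to oxygen. Its catalytic subunit, gp91phox (Cybb), is held in the membrane by p22phox (Cyba), and it works only once cytosolic subunits such as p47phox (Ncf1) and p40phox (Ncf4) and an active Rac GTPase have moved to the membrane. The enzyme is known for the killing of microbes by phagocytes, and loss of a subunit causes chronic granulomatous disease.

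Promoter sequences are shown because the 5 transcripts rose together with treatment but to unlike extents, as given below. The sequences run 5′ to 3′ on the gene's strand, from 250 bases before the annotated start to 50 bases after it, and come from RefSeq (GRCm38.p6). They are shown for 3 of the 5 genes. Capitals mark matches to 4 motifs searched on both strands, namely GAGGAA (PU.1), AANNGAAA (interferon response element), TTCNNNGAA (STAT) and GGGANTTTC (kB). The Cybb window is chrX:9469275-9469574, minus strand, the Cyba window is chr8:122432891-122433190, minus strand, and the Ncf1 window is chr5:134229576-134229875, minus strand. The Cyba and Ncf1 windows lie at the start of the gene as the deposited table places it, whereas the start used for Cybb lies inside that table's gene interval, whose outer end on this strand is further upstream.
Cybb: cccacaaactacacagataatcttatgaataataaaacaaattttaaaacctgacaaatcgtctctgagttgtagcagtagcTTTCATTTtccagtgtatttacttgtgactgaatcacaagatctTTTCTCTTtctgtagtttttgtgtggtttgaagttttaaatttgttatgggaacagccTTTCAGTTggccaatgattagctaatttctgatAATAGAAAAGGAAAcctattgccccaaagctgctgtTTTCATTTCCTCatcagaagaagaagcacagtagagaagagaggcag
Cyba: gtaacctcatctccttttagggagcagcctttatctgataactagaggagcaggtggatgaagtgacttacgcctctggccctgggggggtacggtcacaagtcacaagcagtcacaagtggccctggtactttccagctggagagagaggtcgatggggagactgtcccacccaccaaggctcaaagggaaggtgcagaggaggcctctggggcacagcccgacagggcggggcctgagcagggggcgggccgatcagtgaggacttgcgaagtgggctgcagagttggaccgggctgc
Ncf1: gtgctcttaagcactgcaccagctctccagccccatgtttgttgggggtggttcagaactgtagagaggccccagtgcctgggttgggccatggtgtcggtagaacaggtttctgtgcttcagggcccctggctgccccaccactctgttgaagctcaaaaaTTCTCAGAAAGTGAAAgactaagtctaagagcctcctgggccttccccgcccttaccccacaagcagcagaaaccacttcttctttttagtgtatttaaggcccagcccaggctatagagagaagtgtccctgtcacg

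The Cybb window held 6 matches to AANNGAAA, some of which overlap, and 1 to GAGGAA. Their first bases lay at -168, -124, -66, -33, -27 and 3 for AANNGAAA and at 9 for GAGGAA, counted from 0 at the annotated start, and the last of the AANNGAAA matches overlaps the GAGGAA match. At least 1 AANNGAAA match was found in 23.9% of 32851 promoter windows of the same length and at least 1 GAGGAA match in 28.3%, while 6 or more AANNGAAA matches were found in 4 windows (0.0122%). The Ncf1 window held 1 AANNGAAA match at -80 and 1 TTCNNNGAA match at -88, which overlap, and 8.30% of windows held the latter. No match to any of the 4 motifs was found in the Cyba window, and none to GGGANTTTC, which 1.11% of windows held, in any of the 3. The cutoff of 6 was the count of the Cybb window itself, and the 32851 windows were not matched to it for base composition. A match is a match of letters only, and its bearing on these transcripts was not tested.

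Cybb, on chromosome X (9435252 to 9487771, minus strand, mm10), encodes the catalytic subunit gp91phox and had the largest rise of the 5 genes with CpG in both strains and with ACs in SjSS, but the smallest with ACs in B6. In B6 BMDMs its level was 1258, 1355 and 1217 CPM in control samples, 1328, 1533 and 1535 CPM with ACs, and 4470.1, 4244 and 4212 CPM with CpG. In SjSS BMDMs it was 964, 893 and 880.3 CPM in control samples, 3003, 2814 and 3041 CPM with ACs, and 3282, 3153 and 3295 CPM with CpG. B6 AC samples overlapped B6 controls, whereas every SjSS AC sample stood far above every SjSS control and close below the SjSS CpG samples.

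CpG raised Cybb in both strains, 3.37-fold in B6 (log2 fold change 1.75 ± 0.066 (SE), adjusted p = 6.41e-14) and 3.55-fold in SjSS (1.83 ± 0.066, adjusted p = 5.36e-14). ACs raised it 3.24-fold in SjSS (log2 fold change 1.69 ± 0.066, adjusted p = 6.85e-14) and 1.15-fold in B6 (0.20 ± 0.064, adjusted p = 0.0195). The B6 call with ACs was lost in 5 of 12 alternative analyses, with the compared groups only and without B6 control replicate 1 or 3 or B6 AC replicate 2 or 3. Across all of these its log2 fold change stayed between 0.16 and 0.27. The response to ACs was larger in SjSS than in B6 by 1.50 ± 0.091 on the log2 scale (interaction, adjusted p = 3.72e-10). For CpG, no difference between the strains' responses was found (0.075 ± 0.091, adjusted p = 0.706).

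**Figure D1:**
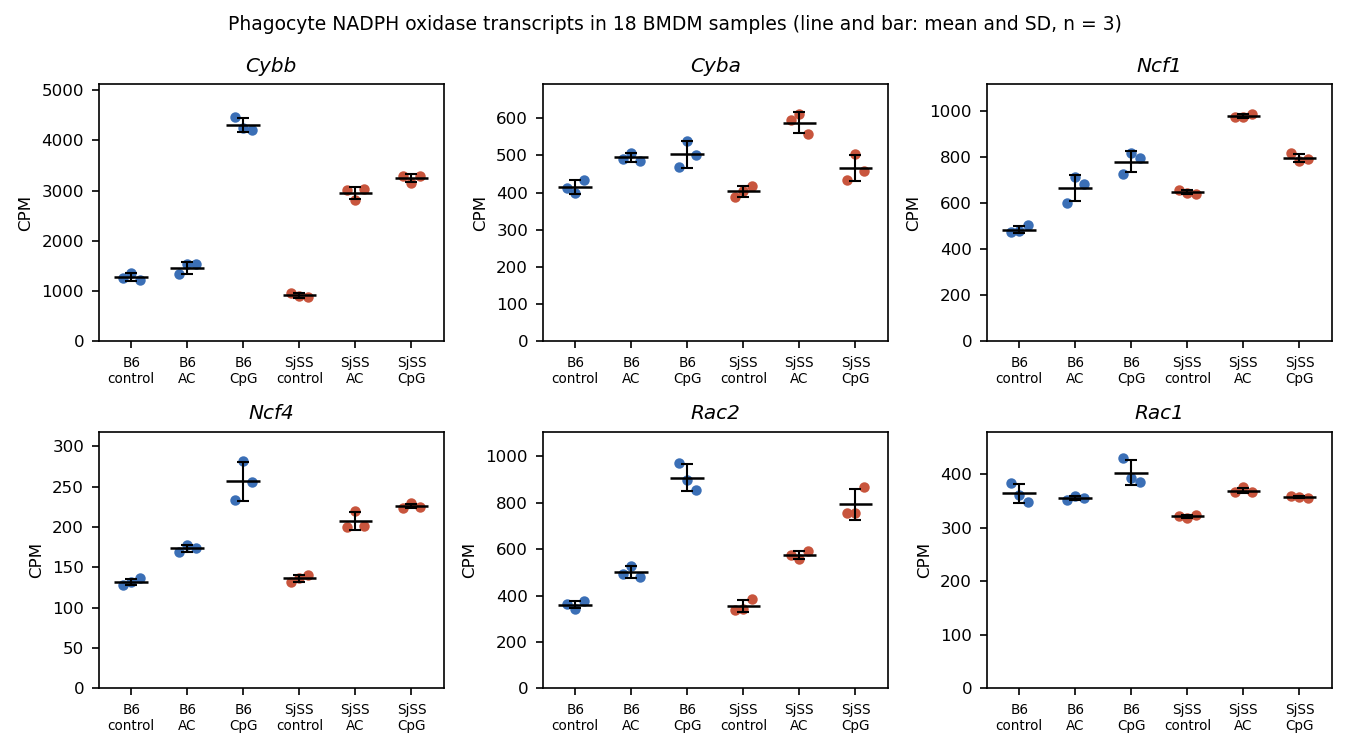
Level of the 5 genes and of Rac1 in CPM (y axis, from 0) in each of the 18 samples by group (x axis). Points are samples, B6 in blue and SjSS in red, the line is the group mean and the bar the SD (n = 3). Cybb was near its CpG level in SjSS AC samples (2814 to 3041 CPM) and near its control level in B6 AC samples (1328 to 1535 CPM).

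Cyba, on chromosome 8 (122424776 to 122432930, minus strand), encodes p22phox, which forms the membrane heterodimer with gp91phox. Its levels in B6 were 412, 399 and 435 CPM in control samples, 491, 507 and 485 CPM with ACs, and 467, 539 and 502 CPM with CpG. In SjSS they were 388, 404 and 417 CPM, 596, 612 and 557 CPM, and 434, 504 and 458 CPM in the same order. After TMM scaling the SjSS AC samples were the highest and stood apart from all others, and the B6 AC, B6 CpG and SjSS CpG samples overlapped.

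The changes of Cyba were small beside those of its partner. ACs raised it 1.19-fold in B6 (log2 fold change 0.25 ± 0.064, adjusted p = 0.00386) and 1.46-fold in SjSS (0.55 ± 0.064, adjusted p = 5.13e-07). CpG raised it 1.21-fold in B6 (0.28 ± 0.064, adjusted p = 0.00104) and 1.16-fold in SjSS (0.21 ± 0.064, adjusted p = 0.00968). The last call was lost without SjSS CpG replicate 2, where the log2 fold change was 0.15 (adjusted p = 0.0731). The AC response was larger in SjSS by 0.29 ± 0.090 (interaction, adjusted p = 0.015). This value is smaller than the shift that the TMM factors make in the interaction, so its direction rests on the scaling. By GENCODE M21 Cyba overlaps Gm20388 on the other strand (29.4 to 43.9 CPM as group means), and whether counting used strand was not given in the sources used here, so their reads cannot be told apart there.

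Ncf1, on chromosome 5 (134220053 to 134229625, minus strand), encodes p47phox, the organizer that is phosphorylated on activation and brings the cytosolic subunits to the membrane. In B6 its levels were 474, 477 and 503 CPM in control samples, 600.5, 714 and 681 CPM with ACs, and 728, 818 and 794 CPM with CpG. In SjSS they were 657, 646 and 639.5 CPM, 973, 974 and 988 CPM, and 816, 784 and 789.8 CPM in the same order. After the same scaling SjSS AC samples were again the highest, and SjSS control samples already reached the range of B6 AC samples.

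In untreated cells Ncf1 was 1.34-fold higher in SjSS (log2 fold change 0.42 ± 0.060, adjusted p = 7.78e-05). ACs raised it 1.37-fold in B6 (0.46 ± 0.060, adjusted p = 6.78e-06) and 1.51-fold in SjSS (0.60 ± 0.060, adjusted p = 6.86e-08), and the test of the difference between these responses did not pass (interaction 0.14 ± 0.085, adjusted p = 0.221). CpG raised it 1.61-fold in B6 (0.69 ± 0.060, adjusted p = 9.7e-09) and 1.23-fold in SjSS (0.30 ± 0.060, adjusted p = 0.000305). The CpG response was smaller in SjSS by 0.39 on the log2 scale (interaction -0.39 ± 0.085, adjusted p = 0.0104). With CpG the samples of the strains overlapped, at 779.7 ± 46.6 CPM (SD) in B6 and 797 ± 17.2 CPM in SjSS. Ncf1 overlaps Gtf2ird2 on the other strand, whose group means were 8.68 to 15.9 CPM, under the same limit as for Cyba.

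Ncf4, on chromosome 15 (78244801 to 78262580, plus strand), encodes p40phox, which binds the phosphatidylinositol 3-phosphate of phagosomes. In B6 it was at 128, 132 and 136 CPM in control samples, 169, 178 and 173 CPM with ACs, and 233, 281 and 256 CPM with CpG. In SjSS it was at 131, 137 and 140.4 CPM, 200.02, 219.7 and 201 CPM, and 224, 229 and 225 CPM in the same order. In each strain the order was control, AC, CpG with no overlap between them, and the control samples of the strains overlapped.

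ACs raised Ncf4 1.31-fold in B6 (log2 fold change 0.39 ± 0.060, adjusted p = 3.76e-05) and 1.52-fold in SjSS (0.60 ± 0.061, adjusted p = 6.34e-08). CpG raised it 1.95-fold in B6 (0.96 ± 0.061, adjusted p = 9.01e-11) and 1.66-fold in SjSS (0.73 ± 0.061, adjusted p = 5.72e-09). Neither interaction passed, at 0.21 ± 0.085 with ACs (adjusted p = 0.0625) and -0.23 ± 0.085 with CpG (adjusted p = 0.127). The first passed in 4 of 18 alternative analyses, by DESeq2, with its size factors, with the compared groups only and with a replicate block (0.21 to 0.23). The second passed in 2, by DESeq2 and without B6 CpG replicate 1 (-0.25 and -0.30).

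Rac2, on chromosome 15 (78559169 to 78572783, minus strand), encodes the Rac GTPase of blood cells that completes the active oxidase. In B6 its levels were 362, 344 and 375 CPM in control samples, 494, 529 and 479 CPM with ACs, and 974, 898 and 855 CPM with CpG. In SjSS they were 339, 342 and 385 CPM, 573, 559 and 593 CPM, and 756, 755 and 869.7 CPM in the same order. Control, AC and CpG samples stood apart in each strain, and the CpG samples of the strains overlapped.

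ACs raised Rac2 1.39-fold in B6 (log2 fold change 0.47 ± 0.069, adjusted p = 2.26e-05) and 1.62-fold in SjSS (0.69 ± 0.070, adjusted p = 6.14e-08). CpG raised it 2.52-fold in B6 (1.34 ± 0.070, adjusted p = 6.03e-12) and 2.23-fold in SjSS (1.16 ± 0.070, adjusted p = 6.51e-11). The interactions were 0.22 ± 0.098 with ACs (adjusted p = 0.0877) and -0.18 ± 0.098 with CpG (adjusted p = 0.328), and the first passed in 3 of 18 alternative analyses, with the compared groups only, with a replicate block and without SjSS control replicate 3 (0.22 to 0.28).

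Counted together, all 5 genes were significantly higher (adjusted p under 0.05) in each of the 4 responses to treatment. Over all tested genes, 20.0% were higher and 18.3% lower with ACs in B6, 28.6% higher and 29.4% lower with ACs in SjSS, 28.1% higher and 29.8% lower with CpG in B6, and 27.8% higher and 26.4% lower with CpG in SjSS. The median log2 fold change of the 5 was 0.39 with ACs in B6, 0.60 with ACs in SjSS, 0.96 with CpG in B6 and 0.73 with CpG in SjSS. The medians over all tested genes were 0.0015, -0.017, -0.041 and -0.014. The 4 responses share 2 sets of control samples, 1 for each strain, so the counts within a strain are not independent.

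Fewer passed when a log2 fold change over 1.3 was also required, the threshold of the study's methods. The legend of the study's volcano plots gives a fold change of 1.3, a lower bar that was not applied here. With ACs in SjSS only Cybb did, against 12.9% of all tested genes. With CpG in B6, Cybb and Rac2 did, against 12.7%, and with CpG in SjSS Cybb did, against 9.26%. With ACs in B6 none did, the largest change being the 0.47 of Rac2. In the interaction of strain and AC, Cybb alone did, against 7.53%.

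**Figure D2:**
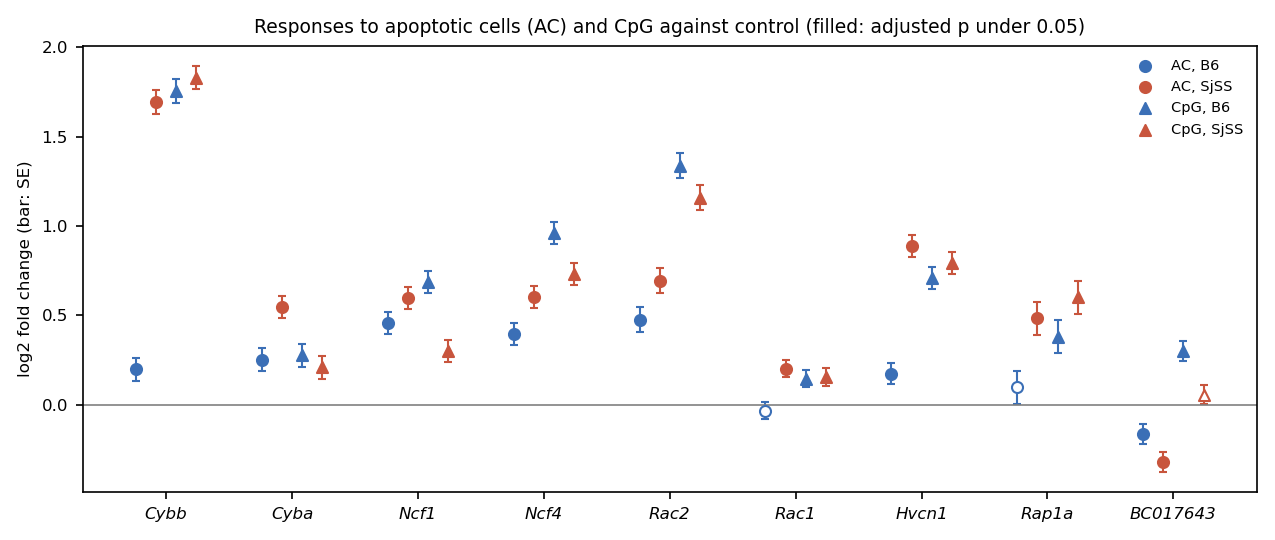
Log2 fold change against control (y axis) of the 5 genes and 4 other components (x axis) with ACs (circles) and CpG (triangles) in B6 (blue) and SjSS (red). Bars are the SE and filled symbols have an adjusted p under 0.05. The SjSS AC value of Cybb (1.69) lies beside both CpG values (1.75 and 1.83) and far from the B6 AC value (0.20).

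The strains were then compared within each condition. Without treatment Cybb was lower in SjSS (log2 fold change -0.48 ± 0.064, adjusted p = 3.5e-05) and Ncf1 higher, as given above, while Cyba (-0.043 ± 0.064), Ncf4 (0.047 ± 0.061) and Rac2 (-0.019 ± 0.069) did not pass, with adjusted p from 0.642 to 0.889. Thus 1 of the 5 was higher and 1 lower, beside 9.04% higher and 10.6% lower over all tested genes. The sign of the Rac2 value turned when B6 control replicate 3, SjSS control replicate 1 or SjSS control replicate 2 was left out.

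With ACs all 5 were higher in SjSS, beside 24.0% higher and 25.5% lower over all tested genes. The TMM factors were lower in SjSS AC (0.833 to 0.838) than in B6 AC samples (1.02 to 1.04), which raises every gene in SjSS. The values of Ncf4, Cyba and Rac2 below are smaller than this shift, so their direction rests on the scaling. Cybb stood 2.02-fold above B6 (log2 fold change 1.01 ± 0.065, adjusted p = 2.08e-10), having been below it in control cells. Ncf1 was 1.47-fold higher (0.56 ± 0.060, adjusted p = 3.33e-07), Ncf4 1.19-fold (0.26 ± 0.060, adjusted p = 0.0017), Cyba 1.19-fold (0.25 ± 0.064, adjusted p = 0.00311) and Rac2 1.15-fold (0.20 ± 0.069, adjusted p = 0.0219). The Rac2 call was lost in 3 of 12 alternative analyses, those without B6 AC replicate 1, B6 AC replicate 3 or SjSS AC replicate 3, with log2 fold changes from 0.17 to 0.24 over all 12.

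With CpG, 2 of the 5 were lower in SjSS and the other 3 did not pass, beside 9.57% lower and 10.2% higher over all tested genes. Cybb was lower by 0.41 on the log2 scale (-0.41 ± 0.064, adjusted p = 0.000151) and Ncf4 by 0.18 (-0.18 ± 0.060, adjusted p = 0.0386). The Ncf4 call was lost in 5 of 12 alternative analyses, with the compared groups only and without B6 CpG replicate 2 or any SjSS CpG replicate, and the value without B6 CpG replicate 2 was -0.11. Rac2 did not pass (-0.20 ± 0.069, adjusted p = 0.0531) but did in 5 of 12, by DESeq2, with its size factors, with a replicate block and without B6 CpG replicate 3 or SjSS CpG replicate 3 (-0.20 to -0.27). Cyba (-0.11 ± 0.064) and Ncf1 (0.031 ± 0.060) did not pass, with adjusted p of 0.247 and 0.771, and the sign of the Ncf1 value turned without B6 CpG replicate 1.

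The interaction of strain and AC asks whether the AC response differed between the strains. It was positive and significant for 2 of the 5, Cybb and Cyba, and the other 3 did not pass, beside 19.6% higher and 18.3% lower over all tested genes. The Cyba value was smaller than the shift of the TMM factors, as given above. The interaction of strain and CpG was negative and significant for 1, Ncf1, and the other 4 did not pass, beside 3.23% higher and 2.62% lower. In the same AC interaction 4 of 7 macrophage markers and 4 of 5 tested neutrophil markers were also significantly higher, and their part in the Cybb result was not tested. With ACs in B6, 1 macrophage marker rose and 4 fell, and 3 neutrophil markers fell. With ACs in SjSS, 4 macrophage markers rose and 1 fell, and 2 neutrophil markers rose. The summed neutrophil markers were 125 to 141 CPM in B6 AC and 182 to 187 CPM in SjSS AC, nearly all Csf3r and Mmp8, and S100a8 was at 3.22 and 2.21 CPM. S100a9 and Camp had few counts, 4 and 13 over the B6 AC group and 12 and 39 over the SjSS AC group. The thymocyte and T cell markers summed to 5.86 to 7.02 CPM in B6 AC samples and 15.7 to 19.7 CPM in SjSS AC samples, against 8.85 to 11.1 and 11.0 to 12.9 CPM in the controls. Of these sums Cd4 made up 3.57 and 14.0 CPM with ACs, and Cd3e was at 0.0401 and 0.0294 CPM as group means. Of the 5 tested markers of this list, 3 were higher in SjSS with ACs and 0 lower. Rag1 and Dntt of the same list went the other way, on few counts. Rag1 was at 0.163 CPM in B6 AC and 0.0231 in SjSS AC (24 and 3 counts over the group). Dntt was at 0.123 and 0.00701 CPM (18 and 1 counts). Thymocyte RNA left in the samples was therefore not ranked between the strains.

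**Figure D3:**
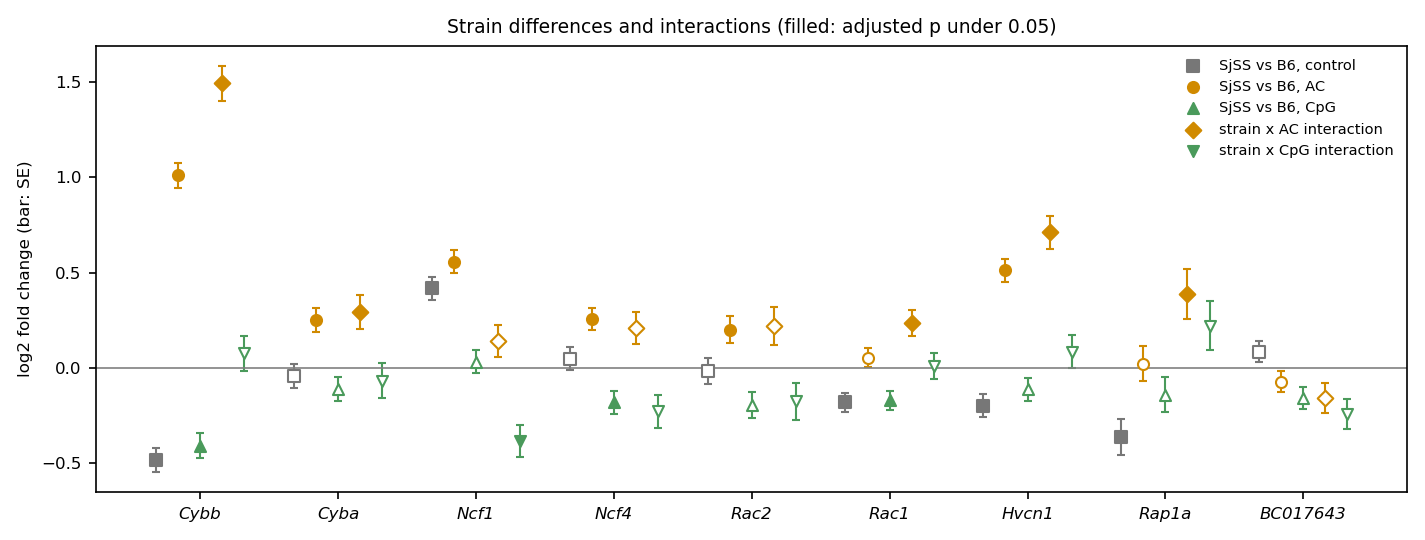
Log2 fold change of SjSS against B6 (y axis) in control, AC and CpG samples, and the 2 interactions of strain and treatment, for 9 genes (x axis). Bars are the SE and filled symbols have an adjusted p under 0.05. For Cybb the strain difference is -0.48 in control, 1.01 with ACs and -0.41 with CpG.

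Ordered by group, Cybb fell from B6 CpG (4309 ± 141 CPM, mean ± SD) through SjSS CpG (3243 ± 78.5), SjSS AC (2953 ± 122), B6 AC (1465 ± 119) and B6 control (1277 ± 70.6) to SjSS control (912 ± 45.2). Only B6 AC and B6 control overlapped among neighbours in that order. Cyba and Ncf1 had SjSS AC at the top (588 ± 28.3 and 978 ± 8.38 CPM), whereas Ncf4 and Rac2 had B6 CpG there (257 ± 24.3 and 909 ± 60.1 CPM). For Cyba, every pair of neighbours below the top overlapped. For Rac2 and Ncf4 the control groups of the strains overlapped and were lowest.

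Merged exons join all annotated isoforms of a gene, so an order of genes per kilobase depends on that length as well as on the transcripts expressed. Per kilobase of merged exon, Cyba had the highest level of the subunits in control cells, at 399.6 ± 17.5 CPM per kb in B6 and 388 ± 14.3 in SjSS. Cybb was at 219.8 ± 12.2 and 157 ± 7.77 CPM per kb. With CpG the order turned, with Cybb at 742 ± 24.2 CPM per kb in B6 and 558 ± 13.5 in SjSS, above Cyba at 484 ± 34.4 and 448 ± 34.2. With ACs Cyba remained above Cybb in both strains, by 476 ± 11.1 to 252 ± 20.5 CPM per kb in B6 and by 566 ± 27.3 to 508 ± 20.98 in SjSS.

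Ratios within a sample do not depend on the scaling of libraries, but whether a ratio lies above 1 depends on the merged exon lengths. The ratio of Cybb to Cyba per kb was 0.546, 0.608 and 0.501 in B6 control samples, 0.484, 0.541 and 0.566 with ACs and 1.71, 1.41 and 1.50 with CpG. In SjSS it was 0.445, 0.396 and 0.377, then 0.901, 0.823 and 0.977, then 1.35, 1.12 and 1.29. The ratio in SjSS AC samples lay between control and CpG samples with no overlap, and in B6 AC samples it overlapped control. These ratios are given as descriptions with no test.

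For the cytosolic pair, Ncf4 to Ncf1 was lower in SjSS controls (0.381 ± 0.0179, SD) than in B6 controls (0.493 ± 0.00676). It was 0.474 ± 0.0306 and 0.384 ± 0.0223 with ACs, and 0.596 ± 0.0242 and 0.515 ± 0.0166 with CpG, in B6 and SjSS. The ratio of Rac2 to Rac1, the GTPase found in most cells, was 1.43 ± 0.104 in B6 controls, 2.04 ± 0.0933 with ACs and 3.27 ± 0.0432 with CpG. In SjSS it was 1.60 ± 0.108, 2.26 ± 0.0933 and 3.21 ± 0.282. Rac1 and Rac2 are close paralogs, and reads that match both may have been divided between them by the counting.

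**Figure D4:**
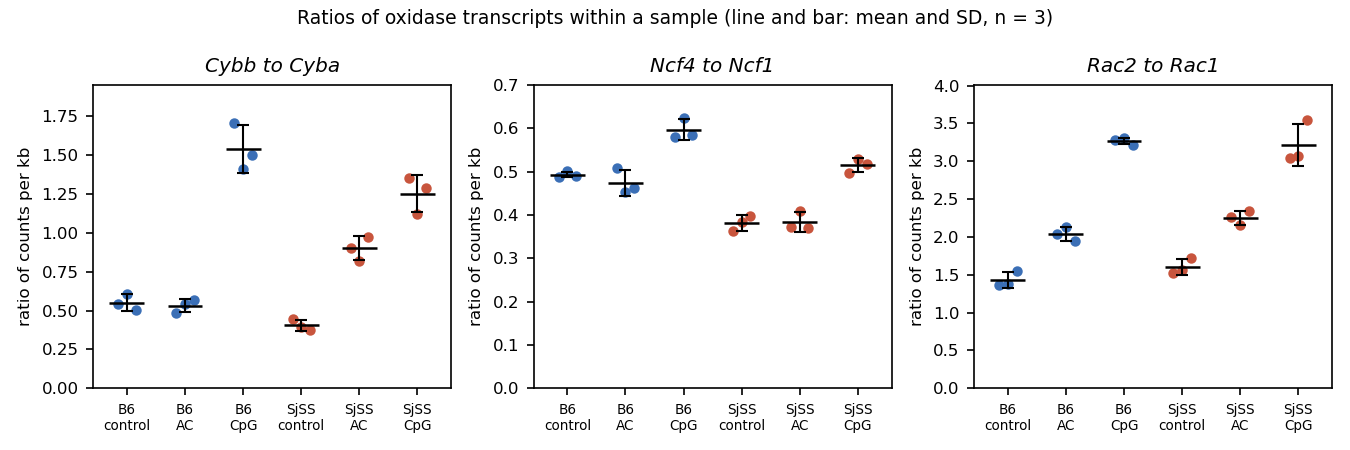
Ratio of counts per kb of Cybb to Cyba, Ncf4 to Ncf1 and Rac2 to Rac1 (y axes, from 0) in each sample by group (x axis). Points are samples, B6 in blue and SjSS in red, with the mean and SD (n = 3). Cybb to Cyba is above 1 in all 6 CpG samples and below 1 in all others, by merged exon lengths.

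The other components were taken from a list of 14 genes. The table held 9 of these, and 7 could be tested. Hvcn1, the voltage-gated proton channel that balances the charge moved by the oxidase, differed from Cybb in its calls only in the comparison of strains with CpG. It was at 154, 161 and 165 CPM in B6 control samples, 185, 181 and 175 CPM with ACs and 249, 272 and 265 CPM with CpG. In SjSS it was at 132, 145 and 141 CPM, 249, 270.1 and 254 CPM, and 229, 266 and 230.5 CPM. SjSS AC samples reached the range of the CpG samples, and B6 AC samples stood close above control.

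The AC response of Hvcn1 was 0.17 ± 0.061 in B6 (adjusted p = 0.03, lost in 4 of 12 alternative analyses) and 0.89 ± 0.061 in SjSS (adjusted p = 2.95e-10). The interaction was 0.71 ± 0.086 (adjusted p = 2.53e-06). CpG gave 0.71 ± 0.061 and 0.79 ± 0.061 in the same strains (adjusted p = 7.13e-09 and 2.01e-09). In control cells Hvcn1 was lower in SjSS (-0.20 ± 0.061, adjusted p = 0.0275), a call lost in 5 of 12 alternative analyses.

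Rac1 was nearly level, with group means from 321 to 403 CPM. After TMM scaling it rose with ACs in SjSS (log2 fold change 0.20 ± 0.049, adjusted p = 0.00157) and with CpG in B6 (0.15 ± 0.049, adjusted p = 0.0154, lost in 4 of 12 alternative analyses) and SjSS (0.16 ± 0.049, adjusted p = 0.0115). For ACs in SjSS and CpG in B6 the value is smaller than the shift of the TMM factors, so its direction rests on the scaling. Its value with ACs in B6 was -0.033 ± 0.049 (adjusted p = 0.643), and the interaction was 0.23 ± 0.069 (adjusted p = 0.0116), again smaller than that shift. Between strains Rac1 was lower in SjSS in control cells (-0.18 ± 0.049, adjusted p = 0.0138, lost in 3 of 12 alternative analyses). With ACs no difference between strains was found (0.053 ± 0.049, adjusted p = 0.385). Rac1 overlaps Daglb on the other strand (16.5 to 101 CPM).

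Rap1a, a small GTPase found with the membrane heterodimer, rose with ACs in SjSS (0.48 ± 0.093, adjusted p = 0.000186) and with CpG in B6 (0.38 ± 0.092, adjusted p = 0.00159) and SjSS (0.60 ± 0.093, adjusted p = 1.95e-05). Its AC interaction was 0.39 ± 0.13 (adjusted p = 0.0259), a call lost in 6 of 18 alternative analyses. Between strains Rap1a was lower in SjSS in control cells (-0.36 ± 0.093, adjusted p = 0.0096, lost in 2 of 12 alternative analyses). With ACs no difference between strains was found (0.021 ± 0.092, adjusted p = 0.866). BC017643, the chaperone of the gp91phox and p22phox heterodimer also called Eros or Cybc1, fell with ACs in B6 (-0.16 ± 0.056, adjusted p = 0.0267, lost in 5 of 12 alternative analyses) and SjSS (-0.32 ± 0.056, adjusted p = 6.39e-05). With CpG it rose in B6 (0.30 ± 0.056, adjusted p = 0.000118), and in SjSS the value was 0.057 ± 0.056 (adjusted p = 0.417). The chaperone was thus lower with ACs in both strains while Cybb and Cyba were higher.

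The other NADPH oxidases were at or near background. Nox1 had group means from 0.0318 to 0.484 CPM, from 4.14 to 63.5 counts over the 3 samples of a group, and its calls rest on these few counts. Noxo1, the organizer of Nox1, had means from 0.579 to 1.46 CPM and was lower with ACs and CpG in both strains, at -0.86 ± 0.27 and -1.13 ± 0.29 with ACs (adjusted p = 0.0177 and 0.00265). The call was lost in 2 of 12 alternative analyses with ACs in B6, without AC replicate 1 or 3, and in 3 of 12 with CpG in SjSS, without control replicate 1 or 3 or CpG replicate 3. Nox4 and Noxa1 were at most at 0.272 CPM in any sample and did not pass the filter. Cybb was therefore the one catalytic NADPH oxidase transcript, of the genes named here, found above 1 CPM.

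Among the 7 tested genes of this list, 1 was higher and 3 were lower with ACs in B6, 4 higher and 3 lower with ACs in SjSS, 6 higher and 1 lower with CpG in B6, and 5 higher and 1 lower with CpG in SjSS. Beside these, 20.0% of all tested genes were higher and 18.3% lower with ACs in B6, and 28.6% and 29.4% in SjSS. With CpG the shares were 28.1% and 29.8% in B6, and 27.8% and 26.4% in SjSS. Counts of this list and the lists below are descriptions, and no list was tested as a set. Between strains 4 were lower in SjSS and 3 did not pass in control cells, 2 were higher and 1 lower with ACs, and 2 were lower and 5 did not pass with CpG. Over all tested genes, 9.04% were higher and 10.6% lower in control cells, 24.0% and 25.5% with ACs, and 10.2% and 9.57% with CpG. The AC interaction was positive and significant for 4, beside 19.6% of all tested genes. In the CpG interaction 3.23% of all tested genes were higher and 2.62% lower. For the CpG interaction 0 of the 7 passed by edgeR and 1, BC017643, had an unadjusted p under 0.05 (interaction -0.24 ± 0.079), and this gene passed by DESeq2 (adjusted p = 0.0147).

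Of 18 genes that act on the oxidase, such as kinases that phosphorylate p47phox, exchange factors and inhibitors of Rac and lipid enzymes, 9 rose and 2 fell with ACs in B6, while 10 rose and 3 fell in SjSS. With CpG 11 rose and 5 fell in B6, while 9 rose and 5 fell in SjSS. Prkcd, a protein kinase C that phosphorylates p47phox, had the largest increase with ACs in SjSS (log2 fold change 0.75 ± 0.055, adjusted p = 6.63e-10) and the largest positive AC interaction (0.60 ± 0.077, adjusted p = 5.26e-06). Its level rose from 233 ± 11.3 to 390.2 ± 3.25 CPM in SjSS and was 265 ± 13.0 and 294 ± 11.8 CPM in B6. Beside the counts of this list, 20.0% of all tested genes were higher and 18.3% lower with ACs in B6, and 28.6% and 29.4% in SjSS. With CpG the shares were 28.1% and 29.8% in B6, and 27.8% and 26.4% in SjSS.

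With CpG the largest increases were in Pik3cg, the gamma catalytic subunit of PI3 kinase, in B6 (1.66 ± 0.071, adjusted p = 3.7e-13) and in Prkcb, another protein kinase C, in SjSS (1.68 ± 0.081, adjusted p = 2.69e-12). Vav3, an exchange factor for Rac, had the largest increase with ACs in B6 (0.50 ± 0.088, adjusted p = 0.000165) and the largest decrease with CpG in both strains (-1.13 ± 0.091 and -0.83 ± 0.090). Pik3c3, which makes the phosphatidylinositol 3-phosphate that p40phox binds, had the largest decrease with ACs in SjSS (-0.75 ± 0.057, adjusted p = 1.33e-09) and a negative AC interaction (-0.39 ± 0.080, adjusted p = 0.000779). Pik3cd, the delta subunit of PI3 kinase, fell most with ACs in B6 (-0.62 ± 0.060, adjusted p = 1.51e-07) and had the largest negative CpG interaction (-0.57 ± 0.085, adjusted p = 0.000593).

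Between strains, 2 of the 18 were higher and 3 lower in control cells, 7 higher and 3 lower with ACs, and 2 higher and 7 lower with CpG. Dock2, a Rac exchange factor, was the highest in control SjSS cells (0.24 ± 0.061, adjusted p = 0.0093, lost without B6 control replicate 1) and Prkcb the lowest (-0.37 ± 0.079, adjusted p = 0.00306). Prkca had the largest increase with ACs (0.75 ± 0.18, adjusted p = 0.00185) and with CpG (0.76 ± 0.19, adjusted p = 0.00662, lost when the other groups were left out of the fit), at levels of only 1.40 to 2.94 CPM. Pak1, a kinase activated by Rac, had the largest decrease with ACs (-0.31 ± 0.095, adjusted p = 0.0109, lost without B6 AC replicate 1 or SjSS AC replicate 3). Pik3cd had the largest decrease with CpG (-0.49 ± 0.060, adjusted p = 1.1e-05). The AC interaction was positive and significant for 6 and negative for 1, beside 19.6% and 18.3% of all tested genes. For the strain comparisons, the shares over all tested genes were 9.04% higher and 10.6% lower in control cells. They were 24.0% and 25.5% with ACs, and 10.2% and 9.57% with CpG.

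Of 10 genes that handle superoxide and peroxide, the table held 9, all of which were tested. With ACs 5 rose and 1 fell in B6, 4 rose and 5 did not pass in SjSS, and with CpG 4 rose and 3 fell in each strain. Sod2, the mitochondrial superoxide dismutase, had the largest increase in all 4 responses. Its level was 136 ± 2.86 CPM in B6 control, 469 ± 28.7 with ACs and 1536 ± 108 with CpG, and 74.6 ± 1.61, 744 ± 29.8 and 1087 ± 43.1 CPM in SjSS. Beside the counts of this list, 20.0% of all tested genes were higher and 18.3% lower with ACs in B6, and 28.6% and 29.4% in SjSS. With CpG the shares were 28.1% and 29.8% in B6, and 27.8% and 26.4% in SjSS.

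For Sod2 the AC response was 1.79 ± 0.061 in B6 (adjusted p = 2.44e-13) and 3.32 ± 0.065 in SjSS (adjusted p = 1.03e-17), with an interaction of 1.53 ± 0.085 (adjusted p = 1.23e-10). The CpG responses were 3.50 ± 0.065 and 3.87 ± 0.067, with an interaction of 0.37 ± 0.084 (adjusted p = 0.0138, lost without B6 CpG replicate 3). Sod2 was lower in SjSS in control cells (-0.87 ± 0.061, adjusted p = 1.3e-08) and with CpG (-0.50 ± 0.059, adjusted p = 7.96e-06), as Cybb was.

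Gpx1, a glutathione peroxidase of the cytosol, had the largest decrease with CpG in B6 (-0.67 ± 0.072, adjusted p = 1.58e-07) and SjSS (-0.47 ± 0.072, adjusted p = 1.79e-05), and it was the 1 gene of the list higher in SjSS with CpG (0.58 ± 0.072, adjusted p = 1.33e-05). Catalase (Cat) fell with ACs in B6 (-0.17 ± 0.059, adjusted p = 0.0262, lost without B6 control replicate 2 or B6 AC replicate 3). Sod3, the extracellular superoxide dismutase, was higher in SjSS in control cells (1.43 ± 0.41, adjusted p = 0.0189, lost in 5 of 12 alternative analyses) and with ACs (1.60 ± 0.39, adjusted p = 0.00245), at levels of only 0.264 to 1.05 CPM. Between strains 2 of the 9 were higher and 2 lower in control cells, 5 higher and 4 not past the threshold with ACs, and 1 higher and 3 lower with CpG. The shares over all tested genes were 9.04% higher and 10.6% lower in control cells, 24.0% and 25.5% with ACs, and 10.2% and 9.57% with CpG.

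Of 7 transcription factors known to act on phagocyte oxidase genes, 4 rose and 1 fell with ACs in B6, while 5 rose and 1 fell in SjSS. With CpG 4 rose and 2 fell in B6, while 3 rose and 2 fell in SjSS. Beside these, 20.0% of all tested genes were higher and 18.3% lower with ACs in B6, and 28.6% and 29.4% in SjSS. With CpG the shares were 28.1% and 29.8% in B6, and 27.8% and 26.4% in SjSS. Irf1, an interferon-induced factor, was at 73.0 ± 3.70 CPM in B6 control and 128 ± 2.72 with ACs, and at 78.8 ± 9.996 and 1371 ± 84.0 CPM in SjSS. The AC response of Irf1 in SjSS was 4.12 ± 0.11 on the log2 scale (adjusted p = 6.78e-16), and its interaction was 3.31 ± 0.14 (adjusted p = 8.25e-12).

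With CpG Irf1 was at 92.9 ± 13.1 CPM in B6 (log2 fold change 0.35 ± 0.10, adjusted p = 0.00616) and at 85.3 ± 10.1 CPM in SjSS (0.11 ± 0.10, adjusted p = 0.37), far below its level in SjSS AC samples. Irf8, which acts in the making of macrophages, had the largest decrease in all 4 responses, from -0.31 ± 0.066 with ACs in SjSS to -0.76 ± 0.067 with CpG in SjSS. All 7 were higher in SjSS with ACs, led by Irf1 (3.42 ± 0.11, adjusted p = 1.69e-14). In control cells and with CpG the single call was Rela, a subunit of NF-kB, at -0.28 ± 0.065 (adjusted p = 0.00515) and -0.24 ± 0.064 (adjusted p = 0.0139, lost without B6 CpG replicate 2 or SjSS CpG replicate 1). Over all tested genes, 24.0% were higher in SjSS with ACs, while 10.6% were lower in control cells and 9.57% with CpG.

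The genes most like each of the 5 over the 18 samples were found by Pearson's r of log2 CPM, given as a description, since the samples share their groups. For Cybb they were Mtdh (r = 0.989), Tshz1 (0.989) and Nfkbia (0.988), the last an inhibitor of NF-kB. For Cyba they were Anxa5 (0.963), Mien1 (0.959) and Hdc (0.951), and Hdc was at 4.74 CPM in SjSS AC samples and below 1 CPM elsewhere as group means. For Ncf1 they were Oas2 (0.977), Slfn1 (0.973) and Oas3 (0.969), of which Oas2 and Oas3 are oligoadenylate synthetases. For Ncf4 they were Spi1 (0.983), the gene of PU.1, Trpm4 (0.982) and Slc11a1 (0.982). For Rac2 they were Arhgdib (0.991), an inhibitor of GTPase exchange, Oxsr1 (0.990) and Adgre1 (0.989), the macrophage marker F4/80.

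Spi1 was at 374 ± 13.5, 504 ± 27.2 and 799 ± 37.4 CPM in B6 control, AC and CpG samples and at 349 ± 20.2, 593 ± 18.3 and 707 ± 58.9 CPM in SjSS. Adgre1 was at 1627 ± 4.55, 2122 ± 28.5 and 4344 ± 272 CPM and at 1606 ± 18.9, 2524 ± 111 and 3452 ± 249 CPM. Among the 5 genes themselves, r was highest for Ncf4 and Rac2 (0.960) and for Cybb with Ncf4 (0.942) and Rac2 (0.939). It was 0.635 for Cybb and Cyba, the membrane partners.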

How the data were processed

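RNA of 18 BMDM samples was sequenced, and the values the authors deposited were estimated counts for each gene, made by aligning reads to mm10 with STAR and quantifying them with the E/M tool of Partek Flow, without normalization. Versions and the annotation release were not given in the sources used here. Rounding to whole numbers for the tests changed the 41.1% of values that were not whole within 1e-06. The files' coordinates were checked against GENCODE M21, and the end printed is 1 less than the table's. Samples were grouped from their labels.

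Testing was done by edgeR 4.0.16 under R 4.3.3 (quasi-likelihood test, TMM, filterByExpr, 15789 of 20615 genes kept), with 6 group means fitted over all 18 samples and a common estimate of the spread, and Benjamini-Hochberg adjustment within each of 9 comparisons. A gene was significant at an adjusted p under 0.05. The standard error is the log2 fold change divided by the square root of F. Correlations were of log2 CPM (prior count 2), and levels per kb used merged exons of GENCODE M21. Alternatives were DESeq2 1.42.0, its size factors, no filter, a filter of 10 counts in 3 samples, the compared groups only, a replicate block, a log2 fold change over 1.3, and each sample left out. The text names the 5 genes, the list of other components, the significant gene with the largest increase and decrease of each further list in each comparison, and the 3 genes most like each of the 5. Members, lists and this rule were chosen with earlier results of these data known. The fit was tested on simulated data. Some genes that this rule names are not reported here, though they stay in the counts. Proteins, superoxide and the study's other assays were not analysed here. Further steps used matplotlib 3.10.9, numpy 2.4.6 and pandas 2.3.3 in Python 3.11.15.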

Additional observations from a re-analysis of the deposited data

Results flagged for a closer look

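The AC response differed between the strains, by the test of the interaction, for many of the genes named above. Relative to B6, the log2 response in SjSS was larger for Cybb by 1.50, Cyba by 0.29, Hvcn1 by 0.71, Rac1 by 0.23, Rap1a by 0.39, Prkcd by 0.60, Sod2 by 1.53, Irf1 by 3.31 and Nox1 by 4.05, the last on few counts, and it was lower for Pik3c3 (-0.39). Among others it was also larger for Rela by 0.84, Pik3cd by 0.58, Prkcb by 0.48, Spi1 by 0.34, Pik3cg by 0.27, Adgre1 by 0.27 and Cat by 0.21. The CpG response differed for some, with values that included -0.39 for Ncf1, -0.57 for Pik3cd, 0.37 for Sod2 and -0.31 for Adgre1. Each is the difference of 2 responses, and no sample was tested as standing apart, since the groups hold 3 samples. For Rac1 and Rap1a no difference between strains was found with ACs, and SjSS was lower in control cells. Positive AC values as small as those of Cyba and Rac1 are smaller than the shift that the TMM factors make in this interaction.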

How the results depend on the processing

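Among the 5 genes in the 9 comparisons, 258 of 270 results of alternative fits and 310 of 330 results with a sample left out kept their direction and side of the threshold. Every alternative scaled libraries by TMM or by the size factors of DESeq2. They therefore cannot show how far a result rests on scaling of this kind. The sign turned only for Rac2 between strains in control cells (0.0083 to 0.014 in the 3 analyses where it turned, -0.079 to 0.014 over all) and for Ncf1 between strains with CpG (-0.016 without B6 CpG replicate 1, at most 0.067), and neither passed in any analysis. With a log2 fold change over 1.3 required, the number of the 5 that passed was 0 with ACs in B6, 1 with ACs in SjSS, 2 with CpG in B6, 1 with CpG in SjSS, 0 in each of the 3 strain comparisons, 1 in the AC interaction and 0 in the CpG interaction. Between strains with CpG, 1 passed with the compared groups only and 1 to 3 with a sample left out, in place of 2. In the AC interaction 4 passed with the compared groups only and 4 with the replicate block, in place of 2. In the CpG interaction 2 passed by DESeq2 and 1 to 2 with a sample left out, in place of 1. The causes were not tested.

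The labels do not say whether samples with the same number are paired. Correlations of their deviations from group means ran from 0.0198 to 0.264 in B6 and from 0.0272 to 0.142 in SjSS, against -0.252 to 0.0745 and -0.12 to 0.0238 for other numbers. All 3 were over 0.1 only between B6 control and CpG samples (0.137 to 0.264), and there the replicate block left 5 of the 5 genes significant with CpG. Every sample correlated best with its own number in SjSS (9 of 9) but not in B6 (5 of 9), a hint from the data and not from the design. Over all genes, the replicate block moved the CpG interaction from 923 to 1451 significant genes, and 549 passed with the compared groups only and 551 without SjSS CpG replicate 1. Without B6 control replicate 2 or SjSS control replicate 3, the strain comparison of control cells had 1964 and 2042 in place of 3096.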
